A study of Mus musculus with 41 samples.

Results

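The mouse genome carries 39 protein-coding genes named Hox with a cluster letter from a to d and a number, arranged in 4 clusters, and 38 of them were described here. The members were chosen by symbol from the mm10 annotation and by no measured value. Earlier results of these data were known when this gene list was chosen. HoxA held 10 of the described members (Hoxa2 to Hoxa13), HoxB 10 (Hoxb1 to Hoxb13), HoxC 9 (Hoxc4 to Hoxc13) and HoxD 9 (Hoxd1 to Hoxd13), out of 21381 protein-coding genes with a complete coding transcript on chromosomes 1 to 19 and X. The data were peak lists from CUT&Tag, an assay in which an antibody brings a transposase to a histone mark so that nearby DNA is cut and sequenced. The 41 samples formed 24 groups of a cell type and a mark, and each group had 1 peak list.

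Stem cells of the E14 line were grown in serum-lif (mESC-ser) or in 2i-lif (mESC-2i). Muscle was represented by primary myoblasts (MB), by myotubes obtained from such myoblasts in culture (MT) and by whole gastrocnemius (GAS). Macrophages were either derived from bone marrow with M-CSF (BMDM) or sorted from ischemic calf muscle (PIM), and the last cell type was the white adipocyte (ADIPO). All but the stem cells came from C57BL/6 mice. Adipocyte nuclei were taken from epididymal fat of AdipoCre-NuTRAP mice, in which an adipocyte-driven Cre tags the nuclei. All samples were labelled as controls, and all buffers contained sodium butyrate, an inhibitor of histone deacetylases. The stem cells entered the assay whole and every other cell type as nuclei, so that this step and stem cell identity cannot be told apart. Both stem cell groups are 1 line, and GAS is a tissue with several cell types.

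Hox genes encode homeodomain transcription factors that give cells their position along the body axis. Within each cluster the genes lie in the order of the body regions in which they act, with low numbers acting towards the head and high numbers towards the tail and the ends of the limbs, and genes with the same number in different clusters are called paralogues. Cells keep their Hox state for life with the help of Polycomb complexes, which deposit H3K27me3 on clusters that are kept silent, and of Trithorax complexes, which deposit H3K4me3. H3K27ac and H3K18la (lactylation of lysine 18 of histone H3) are found at active promoters and enhancers, and a promoter with H3K4me3 and H3K27me3 at the same time is called bivalent.

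H3K27me3 was measured in 7 cell types (12 samples), H3K4me3 in 4 (8 samples), H3K27ac in 5 (7 samples) and H3K18la in all 8 (14 samples). ADIPO had no H3K27me3 list. The 2 lists of MB, the 3 lists of BMDM and the H3K27ac lists of mESC-ser and PIM came from 1 sample each, and the other 17 lists from 2 samples whose coverage the authors had pooled. The lists held 11002 to 36813 peaks over 22.6 to 197 Mb. Pooled lists hold no spread between replicates, so no test between cell types was made and no difference below has a replicate check. An SD is the spread over cell types. The cell type labels were checked on defining promoters with H3K18la. Pou5f1, Nanog and Sox2, which maintain pluripotency, carried it in both stem cell lists and in none of the other 6, the muscle genes Myod1, Myog, Ckm and Acta1 in MT and GAS but only Myod1 of the 4 in MB, the macrophage genes Csf1r, Adgre1, Cd68 and Spi1 in BMDM and PIM, and the adipocyte genes Adipoq, Plin1 and Pparg in ADIPO. In GAS, H3K18la also lay on 3 of 3 endothelial, 2 of 3 fibroblast and 2 of 4 macrophage marker promoters and on 0 of 2 Schwann cell and 0 of 2 lymphocyte promoters. In ADIPO it lay on Cd68 and Spi1 but not on Csf1r and Adgre1 among the macrophage genes, on 2 of 3 fibroblast genes and on 0 of 3 endothelial genes. H3K18la also lay on Adipoq in BMDM and PIM, on Acta1 in ADIPO, and on Cd68, Spi1 and 2 of 3 fibroblast genes in MT. It lay on Cd68 in both stem cell lists, on Pecam1 and Tek in mESC-ser, on Pecam1 in mESC-2i, on Cdh5 in BMDM, on Cdh5 and Pecam1 in PIM, on Col3a1 in MB and on Cd79a in mESC-ser. H3K27me3 lay on no marker of the cell type itself in mESC-ser, mESC-2i, MT, BMDM and PIM. It did lie on the muscle genes Acta1 in MB and Myod1 and Acta1 in GAS.

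A promoter was the 4001 bp window centred on the transcription start site, and it was called for a mark when a peak of that list covered at least 1 bp of it. All 38 promoters held a CpG island, a stretch rich in the CG dinucleotide that Polycomb complexes commonly occupy, against 69.4% of all protein-coding promoters. The islands were long, with a median of 2129 island bases in the window against 1041 over all island promoters. The sequences below are the stretches from 250 bases before to 50 bases after the start of 1 member of each cluster, from RefSeq on GRCm38.p6, with each CG in capitals. They are shown because these members changed most between cell types, from a window under H3K27me3 to a window under H3K18la, among the 22 of 38 members with an entry in the RefSeq table used here. In Hoxa10, Hoxc6, Hoxc10 and Hoxc12 the whole window changed from one mark to the other between some pair of cell types.

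Hoxa10 (chr6:52234890-52235189, minus strand): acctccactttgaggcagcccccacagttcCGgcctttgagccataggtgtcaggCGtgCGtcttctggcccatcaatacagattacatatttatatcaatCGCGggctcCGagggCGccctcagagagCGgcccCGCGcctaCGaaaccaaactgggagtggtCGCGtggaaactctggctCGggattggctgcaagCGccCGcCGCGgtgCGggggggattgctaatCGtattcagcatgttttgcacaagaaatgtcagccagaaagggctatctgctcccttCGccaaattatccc
Hoxb4 (chr11:96318017-96318316, plus strand): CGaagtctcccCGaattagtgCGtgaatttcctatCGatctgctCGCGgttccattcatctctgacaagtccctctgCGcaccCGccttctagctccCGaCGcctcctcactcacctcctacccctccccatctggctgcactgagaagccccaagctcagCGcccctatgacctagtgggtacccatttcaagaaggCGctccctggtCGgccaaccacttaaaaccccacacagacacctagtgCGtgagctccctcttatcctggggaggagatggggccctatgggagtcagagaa
Hoxc4 (chr15:103034145-103034444, plus strand): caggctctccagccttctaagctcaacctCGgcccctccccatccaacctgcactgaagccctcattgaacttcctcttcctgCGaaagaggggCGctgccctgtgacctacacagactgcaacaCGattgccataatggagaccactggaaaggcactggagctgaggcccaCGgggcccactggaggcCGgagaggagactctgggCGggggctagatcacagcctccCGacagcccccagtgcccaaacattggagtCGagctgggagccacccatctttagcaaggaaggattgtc
Hoxd9 (chr2:74697513-74697812, plus strand): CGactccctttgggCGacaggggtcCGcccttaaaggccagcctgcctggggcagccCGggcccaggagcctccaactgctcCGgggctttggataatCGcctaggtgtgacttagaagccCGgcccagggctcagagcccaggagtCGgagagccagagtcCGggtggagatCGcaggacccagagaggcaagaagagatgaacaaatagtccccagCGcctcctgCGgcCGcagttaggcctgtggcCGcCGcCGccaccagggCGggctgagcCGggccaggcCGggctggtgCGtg

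These 300 bases held 21 CG dinucleotides in Hoxa10, 14 in Hoxb4, 9 in Hoxc4 and 20 in Hoxd9, against a median of 7 over the 32851 promoters of the table, of which 24.8% held at least as many as Hoxa10 and 45.8% at least as many as Hoxc4. The same DNA was under different marks in different cells. The Hoxa10 stretch lay wholly under H3K27me3 in mESC-ser, mESC-2i, BMDM and PIM, and wholly under H3K4me3, H3K27ac and H3K18la in GAS. The Hoxb4 stretch lay under H3K27me3 in mESC-ser, mESC-2i, MB, MT and GAS, and under H3K18la in PIM and ADIPO. The Hoxc4 stretch lay under H3K27me3 in mESC-ser, BMDM and PIM, and under H3K18la in mESC-2i and ADIPO. The Hoxd9 stretch lay under H3K27me3 in every list of that mark but GAS, and no H3K18la or H3K27ac peak reached it.

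H3K27me3 was called on 29.3 ± 7.61 of the 38 (SD, n = 7 cell types), which is 77.1% ± 20, against 18.5% ± 4.33 of all protein-coding promoters and 21.9% ± 6.14 of those with a CpG island. By list, it was called on 38 members in mESC-ser (23.1% of all promoters), 32 in mESC-2i (19%), 20 in MB (10.5%), 20 in MT (17.1%), 25 in GAS (20.5%), 33 in BMDM (16.8%) and 37 in PIM (22.8%). In each of the 7 lists the share of members was thus above that of all promoters, with the lowest share of members in MB and MT. A set of 34 developmental homeobox genes that lie outside the clusters (Dlx, Lhx, Irx and Nkx genes) was at 89.1% ± 14.3.

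H3K18la was called on 6.38 ± 5.71 members (SD, n = 8), or 16.8% ± 15, against 26.8% ± 10.3 of all promoters. The counts were 3 in mESC-ser (28.3% of all promoters), 11 in mESC-2i (32.8%), 6 in MB (7.94%), 3 in MT (29%), 11 in GAS (30.5%), 0 in BMDM (14.3%), 1 in PIM (32.2%) and 16 in ADIPO (39.1%). All members are CpG island promoters, and against these (34.5% ± 14 called) their share was lower in 7 lists and higher in MB (15.8% against 9.52%). Against all promoters it was close in mESC-2i (28.9%), GAS (28.9%) and ADIPO (42.1%). The mean of 6.38 fell to 2.38 with the 5000 peaks of largest signal per list and to 2 with lists reduced to equal bases. In the 7 cell types with both marks, H3K27me3 was on 24.3 ± 10 more members than H3K18la, and the difference had this sign in 7 of 7.

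H3K27ac was called on 0 members in mESC-ser (35.1% of all promoters), 13 in GAS (42.2%), 1 in BMDM (29.6%), 1 in PIM (43%) and 16 in ADIPO (40.7%). H3K4me3 was called on 1 member in mESC-ser (43.1%), 34 in mESC-2i (55%), 27 in GAS (57.9%) and 19 in PIM (53.3%). H3K27ac was thus nearly confined to GAS and ADIPO among the 5 cell types with this mark. In GAS and ADIPO the dispersed homeobox genes differed from the Hox genes. They had H3K27ac on 4 of 34 in GAS and 0 of 34 in ADIPO, and H3K18la on 1 of 34 and 0 of 34. Elsewhere the H3K18la shares went both ways. The dispersed genes were higher in mESC-ser (26.5% against 7.89%) and MT (17.6% against 7.89%). They were lower in mESC-2i (23.5% against 28.9%) and MB (8.82% against 15.8%), and both sets were at or near 0% in BMDM and PIM.

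**Figure D1:**
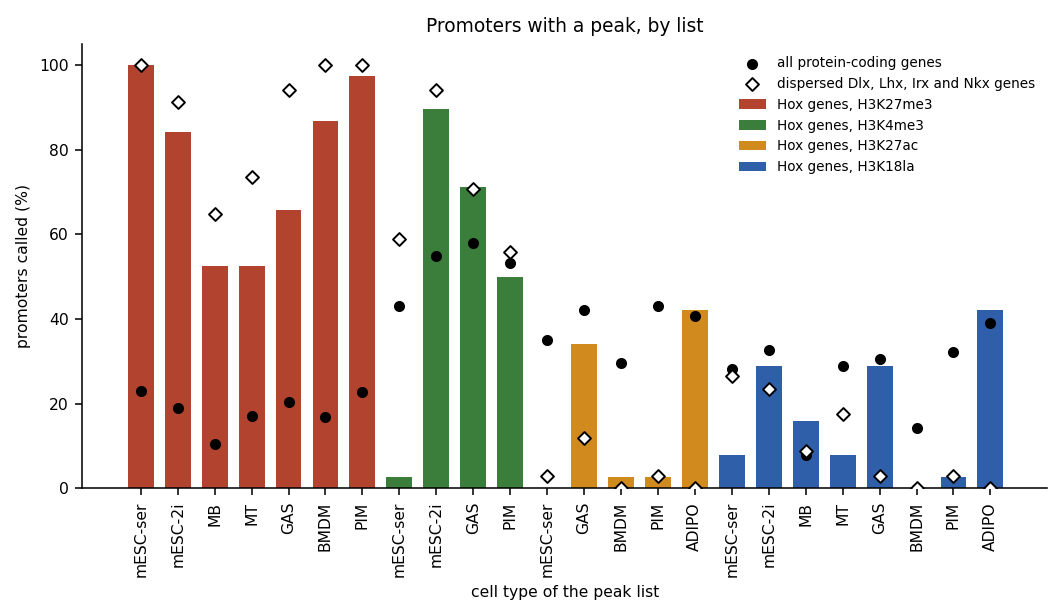
Share of promoters with a peak (y axis, percent) in each of the 24 peak lists (x axis, cell type, bars coloured by mark), for the 38 Hox genes (bars), all protein-coding genes (black dots) and 34 dispersed homeobox genes (diamonds). Red H3K27me3 bars stand above the dots in 7 of 7 lists, while H3K18la bars stand near them in mESC-2i, GAS and ADIPO, below them in mESC-ser, MT, BMDM and PIM, and above them in MB.

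The 4 clusters did not share a state. HoxD kept H3K27me3 on 8.57 ± 0.787 of its 9 members (SD, n = 7) and HoxB on 9.43 ± 0.787 of 10, whereas HoxA ranged from 1 to 10 of 10 and HoxC from 0 to 9 of 9. Of the 15 members called in all 7 H3K27me3 lists, 7 were in HoxB and 7 in HoxD, and Hoxa13, a regulator of digit formation, was the remaining gene. No HoxC member was called in all 7. HoxD had no H3K27ac on any promoter in any of the 5 lists and H3K18la on 1 promoter in 1 of 8 lists (Hoxd9 in GAS, 22.5% of the window). The 11 members without H3K18la in any list were Hoxa13, Hoxb6, Hoxb8 and all of HoxD but Hoxd9.

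The same division was seen across the whole span of each cluster, including the DNA between the promoters. Spans ran from the first to the last base of the described genes, and were in mm10 chr6:52162417-52260880 (98.5 kb) for HoxA, chr11:96194316-96368256 (173.9 kb) for HoxB, chr15:102921103-103036852 (115.8 kb) for HoxC and chr2:74668310-74765142 (96.8 kb) for HoxD. H3K27me3 covered 87.6% ± 15.6 of HoxD (SD, n = 7) and 74.1% ± 12.3 of HoxB, against 45.4% ± 37.2 of HoxA and 52% ± 46 of HoxC. Over all 4 spans it covered 90.9% in mESC-ser, 55% in mESC-2i, 46.1% in MB, 51.9% in MT, 54.7% in GAS, 81.3% in BMDM and 80% in PIM, whereas 2.08 to 6.56% of the genome was under H3K27me3 in these lists. H3K18la covered 32.3% of the spans in ADIPO, 17.5% in mESC-2i, 15% in GAS, 9.15% in MB, 4.67% in MT, 2.84% in mESC-ser, 0.786% in PIM and none in BMDM. The genome's own share was lower than this in ADIPO (2.91%), mESC-2i (4.86%), GAS (4.67%) and MB (1.54%), and it was higher in mESC-ser (3.13%), MT (5.19%), PIM (2.62%) and BMDM (0.856%).

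**Figure D2:**
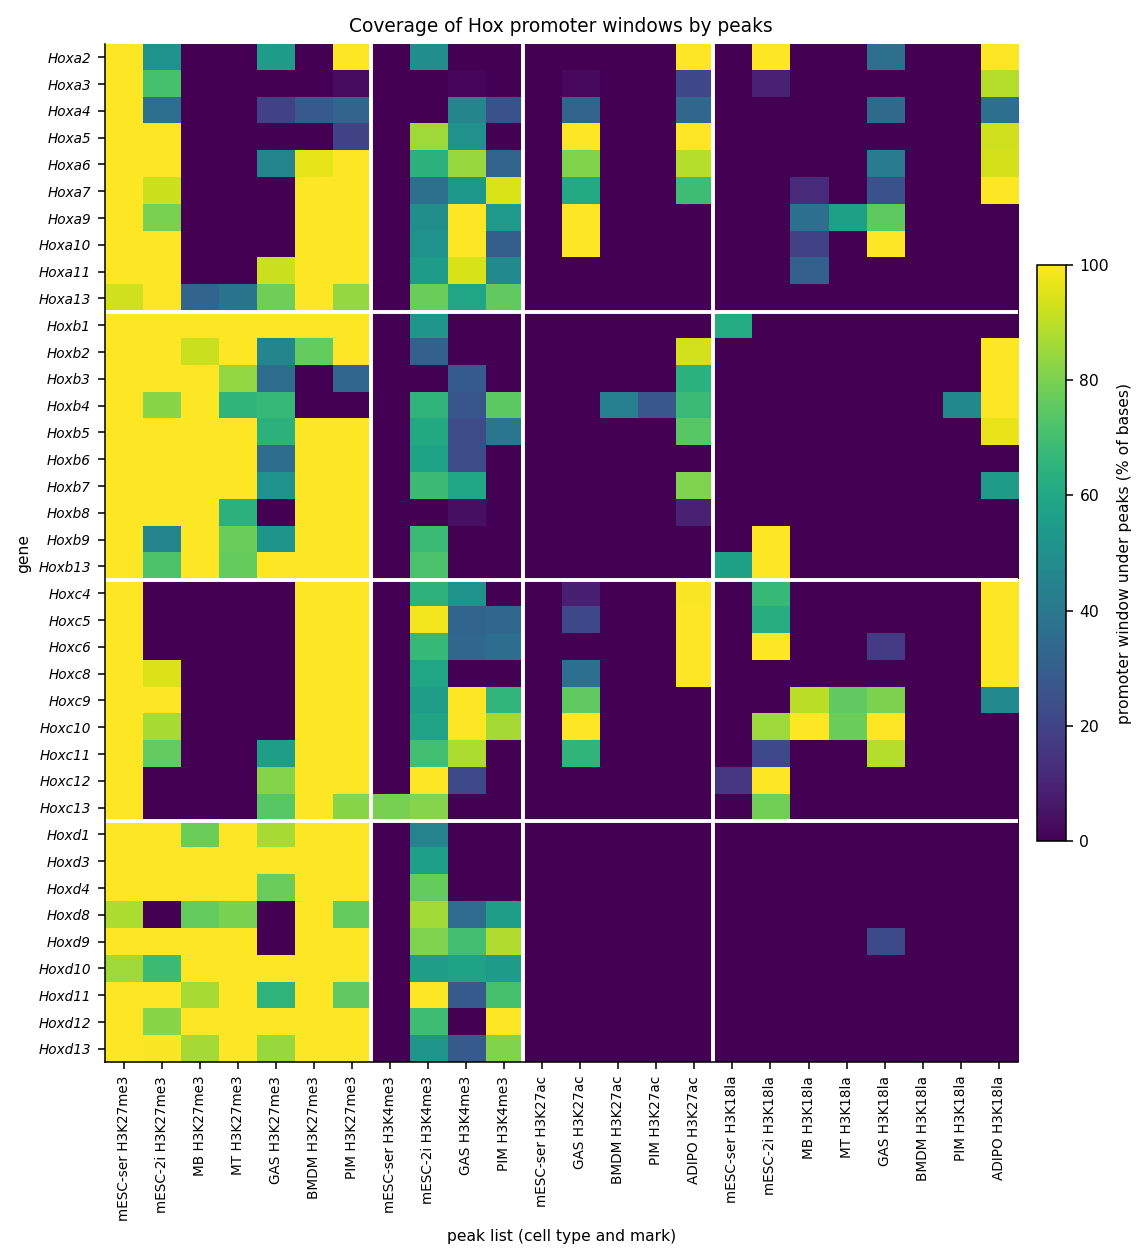
Share of each 4001 bp promoter window under peaks (colour, percent of bases) for the 38 genes (rows, by cluster and number) in the 24 lists (columns, by mark and cell type). H3K27me3 lies on 7 or more members of the HoxB and HoxD blocks in each of 7 lists, and of the HoxA and HoxC blocks in MB and MT it lies only on Hoxa13.

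The members that changed state between cell types are given with the covered share of their windows. Hoxa10, a gene of the lumbar region and of the uterus, had 100% under H3K27me3 in mESC-ser, mESC-2i, BMDM and PIM and 0% in MB, MT and GAS. Its H3K18la was at 19.7% in MB, 100% in GAS and 0% in the other 6 lists, and its H3K27ac was at 100% in GAS and 0% in mESC-ser, BMDM, PIM and ADIPO. H3K27me3 and H3K18la never met on the Hoxa10 window in the same cell type. H3K4me3 did meet H3K27me3 there, with 50.8% in mESC-2i and 30.2% in PIM, besides 100% in GAS and 0% in mESC-ser.

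Hoxa9, a gene required for the growth of blood progenitors, followed Hoxa10. Its window was under H3K27me3 to 100% in mESC-ser, BMDM and PIM, 80% in mESC-2i and 0% in MB, MT and GAS. H3K18la covered 36.4% in MB, 57% in MT, 75.1% in GAS and 0% elsewhere. Hoxa7 differed by its H3K18la in ADIPO (100%), which was higher than in GAS (25%) and MB (12.2%) and absent from the other 5 lists, and its H3K27me3 was at 100% in mESC-ser, BMDM and PIM, 92.5% in mESC-2i and 0% in MB, MT and GAS.

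Hoxc9 and Hoxc10 had H3K18la in 4 of 8 lists, more than any other member. For Hoxc10 the share was 85.5% in mESC-2i, 100% in MB, 77.7% in MT, 100% in GAS and 0% in mESC-ser, BMDM, PIM and ADIPO. Hoxc9 had 89.8% in MB, 75.5% in MT, 80.1% in GAS, 47.5% in ADIPO and 0% in the stem cell and macrophage lists. The neighbours thus differed in mESC-2i and ADIPO, each with a different gene marked. H3K27me3 covered 100% of both windows in mESC-ser, BMDM and PIM, 100% of Hoxc9 and 87% of Hoxc10 in mESC-2i, and 0% in MB, MT and GAS.

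At the anterior end of HoxC, Hoxc4, Hoxc5 and Hoxc6 were under H3K27me3 to 100% in mESC-ser, BMDM and PIM and to 0% in mESC-2i, MB, MT and GAS. In ADIPO H3K18la covered 100% of each of the 3 windows. Hoxc6 was the only one of them with H3K18la in GAS (17.7%), while H3K27ac there covered 8.87% of Hoxc4 and 21.8% of Hoxc5 and none of Hoxc6. Hoxc8 differed in mESC-2i, where H3K27me3 covered 94.7% of its window.

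In HoxD only Hoxd8 and Hoxd9 lacked H3K27me3 in any list, and in HoxB only Hoxb3, Hoxb4 and Hoxb8 did. In ADIPO, where H3K27me3 was not profiled, 6 HoxB members carried H3K27ac (Hoxb2, Hoxb3, Hoxb4, Hoxb5, Hoxb7 and Hoxb8), and H3K18la lay on the same members but Hoxb8. Hoxb8 had H3K27me3 at 100% in mESC-ser, mESC-2i, MB, BMDM and PIM, 64.1% in MT and 0% in GAS, where H3K4me3 covered 4% of its window, and H3K27ac covered 9.27% in ADIPO. Hoxd8 was at 87.6% in mESC-ser, 76.2% in MB, 79.8% in MT, 100% in BMDM, 76.2% in PIM and 0% in mESC-2i and GAS. Those 2 cell types had H3K4me3 on it, at 86.3% and 34.9%, as did PIM at 55.9%. Hoxd9 was at 0% of H3K27me3 in GAS and 100% in the other 6 lists, with H3K4me3 at 80.5% in mESC-2i, 69.8% in GAS and 88% in PIM. Each window of Hoxb8, Hoxd8 and Hoxd9 that lacked H3K27me3 in mESC-2i or GAS thus had H3K4me3, and of these 3 genes only Hoxd9 had H3K18la.

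In stem cells H3K27me3 covered less of all 4 clusters in mESC-2i than in mESC-ser, and most of the promoters without it were in HoxC. The H3K27me3 and H3K4me3 lists used for mESC-ser do not name a medium and were assigned to it because mESC-2i has lists of its own, while the labels name the H3K18la list. In mESC-ser all 38 promoters were called for H3K27me3, with 99.1% of the window bases covered on average. In mESC-2i H3K27me3 was missing from 6 members, of which Hoxc4, Hoxc5, Hoxc6, Hoxc12 and Hoxc13 lie in HoxC and Hoxd8 in HoxD. The HoxC span was covered to 97.3% in mESC-ser and 37.9% in mESC-2i, HoxA to 95.2% and 71%, HoxB to 81.3% and 52.8%, and HoxD to 96% and 63.1%. H3K18la was present in mESC-2i on those 5 HoxC promoters, and no other member had H3K18la without H3K27me3 there (30.4% of all promoters). It covered 100% of the Hoxc6 and Hoxc12 windows, 78.8% of that of Hoxc13, a regulator of hair and nail formation, 67.1% of Hoxc4 and 62.3% of Hoxc5. None of these calls was left with the H3K18la lists reduced to equal bases, where mESC-2i had 0 members. The Hoxc12 promoter was under an H3K18la peak of 18.6 kb. Hoxd8 had H3K4me3 and neither of the other marks. In the 73.2 kb without members between the Hoxb13 and Hoxb9 windows, H3K18la covered 18.8 kb in mESC-2i, 5.28 kb in mESC-ser and none in the other 6 lists.

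H3K18la was found together with H3K27me3 on 6 members in mESC-2i (Hoxa2, Hoxa3, Hoxb9, Hoxb13, Hoxc10 and Hoxc11, against 2.38% of all promoters) and on 3 in mESC-ser (Hoxb1, Hoxb13 and Hoxc12, against 5.61%). On the spans, 25.3% of the H3K18la bases of mESC-2i lay under H3K27me3, and 100% of the 13.8 kb in mESC-ser did. Among the 5000 peaks with the largest signal 1 member was called for H3K18la in mESC-2i. Only Hoxb13 and Hoxc12 had H3K18la in both media. Hoxb13, the outlying last gene of HoxB that acts at the tail end of the axis and in the prostate, had 57.4% of its window covered in mESC-ser and 100% in mESC-2i.

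By the number of members called, the H3K4me3 lists of the stem cells differed more than any other pair of lists of the same mark. H3K4me3 was called on 34 members in mESC-2i and on 1, Hoxc13, in mESC-ser, and 28 and 1 members carried it together with H3K27me3 (10.6% and 9.85% of all promoters). The dispersed homeobox genes did not show so wide a gap, with H3K4me3 on 32 of 34 in mESC-2i and 20 of 34 in mESC-ser. The weakest peak in the mESC-ser list had a total signal of 122245 and that in the mESC-2i list 31716, on scales that are not adjusted for depth. A peak below the limit of the mESC-ser list would not be in it, and its part in the missing calls was not tested. With both lists cut to 40.9 Mb, the size of the smallest H3K4me3 list, the counts were 28 and 1.

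In cultured muscle cells (MB and MT) the HoxA and HoxC spans were free of H3K27me3. In MB and MT the same 20 members were called for H3K27me3, namely all 10 of HoxB, all 9 of HoxD and Hoxa13. None of the HoxC members was called, and no base of the HoxA or HoxC span was covered. Hoxa13 was called only because its window reached a peak outside the span, which began 698 bp upstream of the Hoxa13 start in MB and 459 bp upstream in MT, and which was 8.86 kb and 17.3 kb wide. Beyond HoxC, the nearest H3K27me3 peak on the Hoxc13 side was 175 kb away in MB and 3.31 kb away in MT, and on the Hoxc4 side it was 272 kb and 403 kb away. HoxB and HoxD were covered to 77.5% and 91.9% in MB and to 89.5% and 99.2% in MT.

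H3K18la on the spans in myoblasts and myotubes lay only in HoxA and HoxC. In MB it was called on Hoxa7, Hoxa9, Hoxa10, Hoxa11, Hoxc9 and Hoxc10 (7.89% of all promoters had H3K18la without H3K27me3). It covered 100% of the window of Hoxc10, a gene of the lumbar and hindlimb region, 89.8% of Hoxc9, 36.4% of Hoxa9, 30.7% of Hoxa11, 19.7% of Hoxa10 and 12.2% of Hoxa7. In MT it was called on Hoxc10 (77.7%), Hoxc9 (75.5%) and Hoxa9 (57%), with 27.8% of all promoters in that state. No member in MB or MT carried both marks (0.0514% and 1.22% of all promoters did), and none of the 44.4 kb and 22.7 kb of H3K18la on the spans was under H3K27me3. The HoxB and HoxD paralogues of these genes were under H3K27me3, for example with 100% and 77.4% of the Hoxb9 window and 100% and 100% of the Hoxd9 window in MB and MT.

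The other HoxA and HoxC promoters of the cultured muscle cells had no peak in either list. There were 12 such members in MB (81.6% of all promoters) and 15 in MT (55.1%), for example Hoxa5, Hoxc6 and Hoxc13. Hoxa7, Hoxa10 and Hoxa11 had H3K18la in MB and no peak in MT. H3K4me3 and H3K27ac were not profiled in MB and MT, so a member without a peak may carry either of them.

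In muscle tissue H3K27me3 was present on parts of HoxA and HoxC. In GAS H3K27me3 was called on 25 members and was absent from 13, and 11 of the 13 lay in runs of neighbours. These were Hoxa7, Hoxa9 and Hoxa10 in HoxA, Hoxc4 to Hoxc10 in HoxC, and Hoxd8 and Hoxd9 in HoxD. Hoxa3 and Hoxb8 were free of it as well, and Hoxa5 was called with 0.25% of its window. At the tail end of both clusters the mark was present, on 92.1% of the Hoxa11 window, 78.3% of Hoxa13, 55.7% of Hoxc11, 81.4% of Hoxc12 and 74% of Hoxc13.

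For H3K27ac and H3K18la on promoters the edge in HoxA lay between Hoxa10 and Hoxa11, while H3K4me3 also covered 93.8% of the Hoxa11 and 59.2% of the Hoxa13 window. An H3K27ac peak of 26.4 kb ran over Hoxa7, Hoxa9 and Hoxa10 and ended 8.46 kb upstream of the Hoxa10 start, an H3K27me3 peak began 7.2 kb upstream of it, and the 2 peaks shared 1256 bp. H3K27me3 was present again on the anterior side, on 45% of the Hoxa6 window, 19.8% of Hoxa4 and 55.1% of Hoxa2. In HoxC the edge lay at Hoxc11, where the H3K27me3 peak ended 227 bp past the start and peaks of H3K4me3, H3K27ac and H3K18la also covered the promoter (87.5%, 65.5% and 88.7% of the window). All 3 active marks were found without H3K27me3 on Hoxa7, Hoxa9, Hoxa10, Hoxc9 and Hoxc10, and on no other member. The Hoxa10 and Hoxc10 windows were covered to 100% by each of the 3 marks. The share of all promoters with the 3 active marks and no H3K27me3 was not counted, while 28.2% had H3K18la without H3K27me3. H3K27ac was called on 13 members (34.2%, against 42.2% of all promoters) and H3K18la on 11 (28.9%, against 30.5%), of which 8 were shared (Hoxa4, Hoxa6, Hoxa7, Hoxa9, Hoxa10, Hoxc9, Hoxc10 and Hoxc11). H3K27ac without H3K18la lay on Hoxa3, Hoxa5, Hoxc4, Hoxc5 and Hoxc8, and H3K18la without H3K27ac on Hoxa2, Hoxc6 and Hoxd9. H3K27me3 alone was found on 9 members, among them Hoxb1, Hoxb2, Hoxb9, Hoxb13, Hoxd1, Hoxd3 and Hoxd4. The shares of all promoters with H3K27me3 alone, and with H3K27ac and H3K18la together, were not counted.

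**Figure D3:**
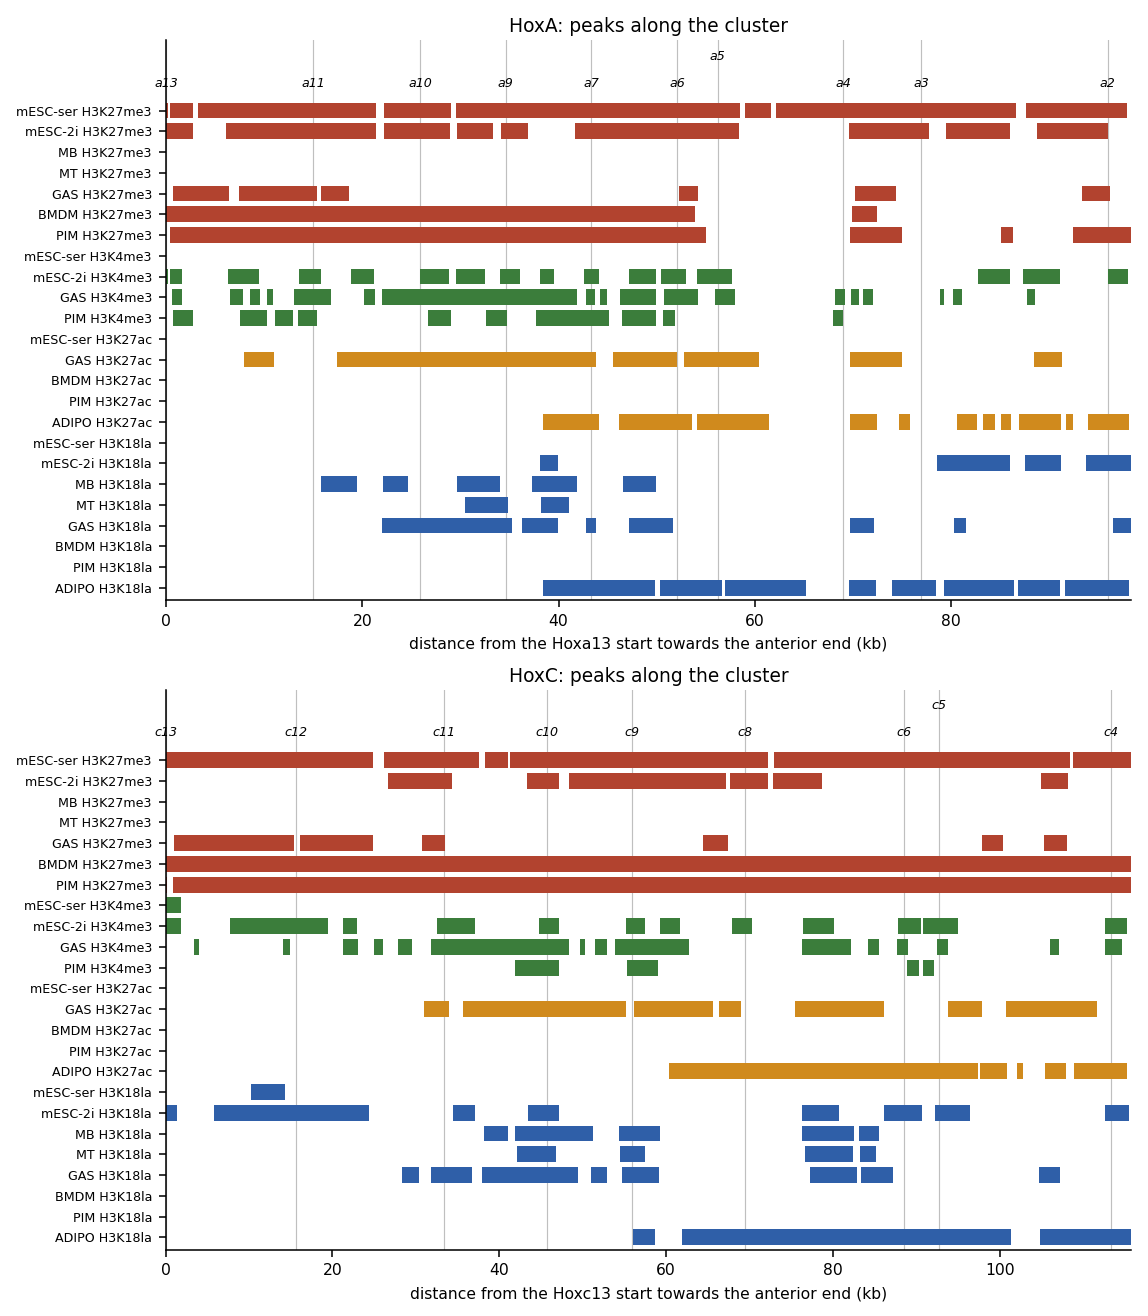
Peaks (coloured blocks) of the 24 lists (rows) along HoxA and HoxC, with the distance in kb from the Hoxa13 or Hoxc13 start towards the anterior end on the x axis and grey lines at the gene starts. H3K27me3 rows of MB and MT are empty in both clusters, and in GAS H3K27me3 gives way to H3K27ac and H3K18la between Hoxa11 and Hoxa10 and at Hoxc11, while H3K4me3 (93.8% of Hoxa11) and 1 H3K27ac peak between the Hoxa13 and Hoxa11 starts also lie beyond the HoxA edge and H3K27me3 returns nearer the anterior end, at Hoxa6, Hoxa4 and Hoxa2.

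Of the 11 H3K18la members of GAS, 4 also carried H3K27me3 (Hoxa2, Hoxa4, Hoxa6 and Hoxc11, against 2.32% of all promoters), and 7 did not (28.2%). On the spans 10.9% of the H3K18la bases of GAS were under H3K27me3, against none in MB and MT. H3K4me3 and H3K27me3 were found together on 15 members (8.8% of all promoters). GAS is a whole tissue, and marks on the same promoter cannot be told apart from marks in different cells of it. The marker promoters of endothelium, fibroblasts and macrophages named above carried H3K18la in GAS, and their part in the Hox calls was not tested.

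By position, the muscle lists had H3K18la mostly on posterior members. Of the 16 posterior genes (numbers 9 to 13) 5 were called in MB, 3 in MT and 6 in GAS, a mean of 4.67 ± 1.53 (SD, n = 3). Of the 11 central genes (5 to 8) 1, 0 and 3 were called (1.33 ± 1.53), and of the 11 anterior genes (1 to 4) 0, 0 and 2 (0.667 ± 1.15). The classes hold unequal numbers of genes, and the posterior calls were all on numbers 9, 10 and 11. Over all promoters H3K18la was on 7.94% in MB, 29% in MT and 30.5% in GAS, so 3 of 16 in MT is below that share, 6 of 16 in GAS is near it, and MB is the list in which the posterior count lies clearly above it. Hoxa9, Hoxc9 and Hoxc10 were called in MB, MT and GAS alike. With lists reduced to equal bases, 2 members were called in MB, 0 in MT and 3 in GAS.

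In macrophages nearly all Hox promoters carried H3K27me3. BMDM had it on 33 members and PIM on 37, with HoxC covered to 100% and 99.4% and HoxD to 97.8% and 98%. A single H3K27me3 peak of 175 kb, which covered all 9 HoxC members, was in the BMDM list, and the HoxA peak of BMDM was 91.2 kb wide and held Hoxa6 to Hoxa13. The members of BMDM without H3K27me3 were the anterior and central genes Hoxa2, Hoxa3, Hoxa5, Hoxb3 and Hoxb4. Hoxb4 apart, these 4 had no peak of any of the 3 marks profiled there (52.6% of all promoters had none).

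The exception in both macrophage groups was Hoxb4, a gene known for promoting the self-renewal of blood stem cells. It was the only member without H3K27me3 in PIM, and it lay in a gap between H3K27me3 peaks of 24.9 kb in BMDM and 29.7 kb in PIM. It was also the only member with H3K27ac in either, on 43.5% of its window in BMDM and 27% in PIM, and the only member with H3K18la in PIM, on 46.7%. The H3K27ac peak of BMDM was among the weakest of its list. Its maximum signal was at the 1.37th percentile, against the 72.3rd for the peak in PIM, and each of these H3K27ac lists came from 1 sample. H3K4me3 covered 74.9% of the Hoxb4 window in PIM. In BMDM no member had H3K18la, and Hoxb4 had no H3K18la peak there. In the 5 other H3K27me3 lists Hoxb4 was covered to 100% in mESC-ser, 82.1% in mESC-2i, 100% in MB, 65.3% in MT and 67.1% in GAS.

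PIM also carried H3K4me3 on 19 members (50%, against 53.3% of all promoters and 71.6% of island promoters), and 18 of these had H3K27me3 as well (10.9% of all promoters). The 18 were mostly posterior, since H3K4me3 was called on 11 of the 16 posterior, 6 of the 11 central and 2 of the 11 anterior genes. Their H3K4me3 peaks were among the weaker ones of the list, with a median mean signal at the 11.4th percentile, where the mean signal is the total signal per base of the peak. With lists reduced to equal bases 8 members had H3K4me3 in PIM, and among the 5000 peaks with the largest signal 1 had. Over the spans 89.8% of the H3K4me3 bases of PIM were under H3K27me3, against 64.8% in mESC-2i, 25.5% in GAS and 100% of the 4.84 kb in mESC-ser. Averaged over the 4 cell types with both marks, 15.5 ± 11.2 members had both.

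In adipocytes the active marks lay on anterior and central members. H3K18la was called on 7 of the 11 anterior, 8 of the 11 central and 1 of the 16 posterior members, and H3K27ac on 7, 9 and 0. The 16 members in all (42.1%) are close to the share of all promoters for both marks (39.1% and 40.7%). With lists reduced to equal bases 11 members had H3K18la in ADIPO. By cluster H3K18la was on 6 members of HoxA (Hoxa2 to Hoxa7), 5 of HoxB (Hoxb2, Hoxb3, Hoxb4, Hoxb5 and Hoxb7), 5 of HoxC (Hoxc4, Hoxc5, Hoxc6, Hoxc8 and Hoxc9) and 0 of HoxD. H3K27ac was on 15 of these 16 promoters, with Hoxc9 as the exception, and on Hoxb8 besides. The share of all promoters with H3K27ac and H3K18la together in ADIPO was not counted. The paper reports that H3K18la is distributed much like H3K27ac over the genome, with some differences. Whether the overlap on Hox promoters exceeds that of other promoters was therefore not tested. The windows of Hoxa2, Hoxc4, Hoxc5, Hoxc6 and Hoxc8, the last a gene that restrains the brown fat programme, were covered to 99.6% or more by both marks.

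The edge in HoxA lay between Hoxa7 and Hoxa9 for both marks. The last H3K18la peak ended 4.97 kb upstream of the Hoxa7 start and 3.77 kb short of the Hoxa9 start, and the last H3K27ac peak ended 4.95 kb and 3.78 kb from them. In HoxC a single peak of 39.4 kb for H3K18la and of 37 kb for H3K27ac covered Hoxc8, Hoxc6 and Hoxc5. H3K18la covered 52.2% of the HoxA span, 29.5% of HoxB, 45.8% of HoxC and 1.23% of HoxD. Hoxa9 and Hoxa10, covered by H3K18la to 75.1% and 100% in GAS, had no peak of either mark in ADIPO. H3K27me3 was not profiled in ADIPO, so the unmarked posterior genes and HoxD may carry it. The part of the macrophage and fibroblast promoters named above in these calls was not tested.

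**Figure D4:**
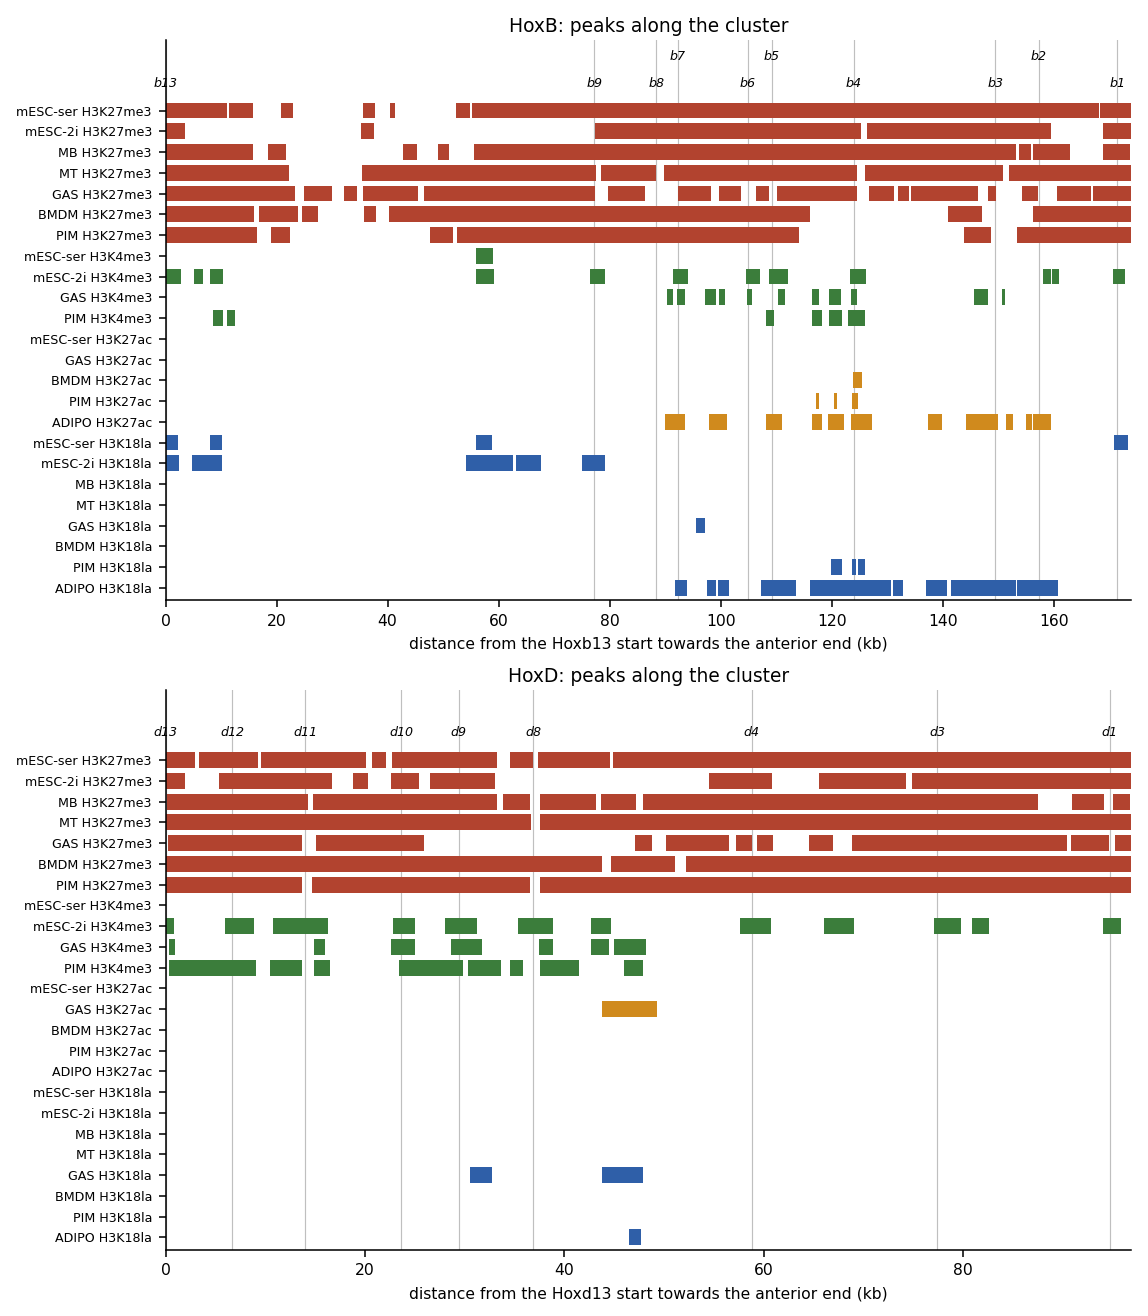
Peaks (coloured blocks) of the 24 lists (rows) along HoxB and HoxD, with the distance in kb from the Hoxb13 or Hoxd13 start towards the anterior end on the x axis and grey lines at the gene starts. H3K27me3 fills most of both clusters in all 7 lists, the macrophage rows show a gap at Hoxb4, and active marks on HoxB are densest in ADIPO.

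Several active peaks lay between the member promoters. The stretch of 15 kb between the Hoxc8 and Hoxc6 windows had H3K18la in 5 of 8 lists, with 4.74 kb covered in mESC-2i, 8.65 kb in MB, 7.74 kb in MT, 8.71 kb in GAS and all 15 kb in ADIPO. The same stretch was wholly under H3K27me3 in BMDM and PIM. In HoxD the stretch between Hoxd8 and Hoxd4 held the only H3K27ac peak of the cluster (5.5 kb, in GAS) together with H3K18la over 4.12 kb in GAS and 1.2 kb in ADIPO. Of the H3K18la bases on the spans, 26 to 49% lay in the promoter windows of members in the 7 lists that had any, and the windows made up 29.7% of the spans.

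The H3K27me3 peaks on Hox promoters were wide and strong for their lists. Their median width was 7 kb in GAS, 7.43 kb in mESC-2i, 7.79 kb in MB, 13.3 kb in mESC-ser, 33.1 kb in MT, 40.4 kb in PIM and 59.9 kb in BMDM, at the 78.7th to 99.3rd percentile of the peak widths of the list. Their mean signal was at the 87th to 97th percentile (median peak). H3K18la peaks had no such common rank. Their median mean signal was at the 6.1st percentile in MB and the 4.35th in MT, at the 18th in mESC-2i, and at the 76.7th in GAS and 77.5th in ADIPO. The ADIPO peaks were also wide, with a median of 6.98 kb against 1.88 kb for the list.

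The genes around the clusters differed from each other. Evx1 beside Hoxa13 and Evx2 beside Hoxd13, which encode homeodomain factors, had H3K27me3 in 7 of 7 lists, MB and MT included. Evx1 also carried H3K18la in mESC-ser and mESC-2i. Skap1 beside HoxB, an adaptor of T cell signalling, had H3K27me3 in 7 of 7 lists. The 4 genes flanking HoxC (Atp5g2, Calcoco1, Smug1 and Cbx5) had H3K27me3 in 0 of 7 lists, and Hnrnpa3 beyond HoxD, an RNA-binding protein gene, had H3K18la in 8 of 8. Cdx1, Cdx2 and Cdx4, which encode activators of Hox genes in the embryo, had H3K27me3 on 3 of 3 promoters in mESC-ser, MT, GAS, BMDM and PIM, on 2 of 3 in MB and on 1 of 3 in mESC-2i. The 9 Pbx, Meis and Pknox genes, which encode the DNA-binding partners of Hox proteins, had H3K27me3 on 0 of 9 in MB and MT, 2 in GAS, 3 in mESC-2i and BMDM, 4 in mESC-ser and 5 in PIM, and H3K18la on 1 (BMDM) to 5 (GAS and ADIPO) of 9.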

How the data were processed

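CUT&Tag libraries of 41 samples were available as 24 peak lists in BED form, 1 for each cell type and mark. Per the labels and the study's methods, the authors trimmed reads with Trim Galore 0.6.6, aligned them to mm10 with Bowtie2 2.4.4, handled alignments with SAMtools 1.13 and made fragment coverage with bedtools 2.30. The authors combined the coverage of a group's samples and called peaks with SEACR 1.3, keeping the top 1% of regions in stringent mode. The deposited lists give for each peak the total signal (coverage summed over its bases) and the maximum signal, neither scaled for depth. Signals were therefore ranked only within a list. The read numbers that the paper reports for each sample were not used here. A region without a peak means only that it was below that list's limit.

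Peaks were intersected with promoters by the coordinates of GENCODE vM21 in Python 3.11.15 with numpy 2.4.6 and pandas 2.3.3. The start site was the one nearest to the start codon among complete coding transcripts, the window reached 2000 bp to each side, and 1 bp of overlap was a call. CpG islands were stretches of at least 200 bp with over 50% GC and an observed over expected CpG ratio above 0.6, found on the mm10 sequence with pyfaidx 0.9.0.4. The overlap code was checked against bedtools 2.31.1 on 4000 simulated windows, of which 0 differed. Promoters came from the RefSeq table for GRCm38.p6, and figures were drawn with matplotlib 3.10.9. Members and lists of genes were chosen with earlier results of these data known. Any member could be named. Members that changed between H3K27me3 and an active mark between cell types, or had an active mark without H3K27me3, were to be described singly, and the rest by counts. Where many members shared a state, examples stand for them. A promoter was printed for the member of each cluster with the largest change that had an entry in the table. Of the 39 genes that match the rule, 1 is not reported here. No p-value was computed, because each group had 1 pooled list.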

Additional observations from a re-analysis of the deposited data

Results flagged for a closer look

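Values over cell types formed 20 sets (each cluster span or promoter count of a mark). In 3 of them a cell type lay far from the others by Dixon's criterion. For normally distributed values this criterion flags about 1 in 20 sets by chance. Sets with many zeros, such as H3K27ac and H3K18la on HoxD, are not of that kind, and their rate is unknown. Each value is that of 1 peak list, and whether samples of a cell type share it cannot be seen from pooled lists. H3K27ac covered 18.5% of the HoxB span in ADIPO, the next of the 5 cell types was at 1.21%, and this gap was 0.935 of the whole range, with 2.07% of the genome under H3K27ac in ADIPO. The HoxD span had H3K27ac over 5.69% in GAS and over 0% in the other 4 cell types, a gap of 1 of the range, which any value above 0 would give here. This is below the 7.47% of the genome under H3K27ac in GAS. H3K18la covered 6.51% of HoxD in GAS, followed by 1.23% in ADIPO among the 8 cell types, with a gap of 0.811 of the range and 4.67% of the genome under H3K18la in GAS.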

How the results depend on the processing

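No paired analysis was possible because the samples of each group had been pooled before peak calling, and for the same reason no replicate could be left out. Cell types were left out in turn instead. The mean number of members with H3K27me3 (29.3) stayed between 25.7 and 30.8 under the alternatives run, its difference from H3K18la (24.3) between 22.3 and 26, and the spans' cover between 60.2 and 69% for H3K27me3. The mean for H3K18la (6.38) fell to 2.38 with the 5000 peaks of largest signal per list and to 2 with lists reduced to equal bases, as both keep fewer peaks. In muscle cell types, the anterior mean of 0.667 became 0 when a peak had to cover 50% of the window, with 5000 peaks and with equal bases, and 1.67 with all coding start sites, and leaving out a cell type gave 0 (without GAS) to 1. The central mean of 1.33 became 0 under the same 3 stricter settings and 0.667 with a half-width of 1000 bp, and leaving out a cell type gave 0.5 (without GAS) to 2. The posterior mean of 4.67 became 2 with 5000 peaks and 1.67 with equal bases, and leaving out a cell type gave 4 to 5.5. Members with H3K4me3 and H3K27me3 together (15.5) became 9.75 with 50% of the window covered, 0.75 with 5000 peaks and 6 with equal bases. Counts and covered shares cannot be negative, so only the difference between H3K27me3 and H3K18la could change sign, and it stayed positive. Using only cell types processed as nuclei, an alternative added after the data were seen, gave 27 members for H3K27me3 and 6.17 for H3K18la.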
